A study of Mus musculus with 28 samples.

Results

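The constitutive proteasome of mouse embryonic fibroblasts (MEFs) was followed through its subunit genes, the Psma and Psmb genes of the core and the Psmc and Psmd genes of the regulatory cap. Members were all genes with one of these prefixes and a number, without Psmb8, Psmb9 and Psmb10, which replace core subunits in the immunoproteasome, and each gene was read from its probe set with the highest mean over 28 arrays. The rule gave 34 genes, measured by 52 probe sets, of 17097 genes on the array. They were 16 core genes and 18 cap genes. Psmc6 and Psmd10 were not analysed here.

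The study asked how far the transcriptional answer to oxidative stress needs p66, the longest protein made from Shc1, and p53. Primary MEFs from 13.5-day embryos were used at passage 2, as WT, p66-/- and p53-/- cells, and the strain was C57Bl/6 by the sample labels and sv129 by the study's methods. For each of the 3 genotypes, 4 arrays came from untreated cells and 4 from cells given 400 μM H2O2 for 4 h. A further 2 arrays each of WT and p66-/- MEFs followed 4 h in 0.25 μg/ml doxorubicin (Doxo), which damages DNA. All values below are deposited log2 intensities, a change is a difference of group means on that log2 scale, and the ± of a change is its standard error. A gene was said to rise or fall when limma's adjusted p, over 45037 probe sets, was under 0.05. The labels call the replicates biological without saying from which embryos they came, so p-values measure the spread between these samples.

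The proteasome is the protease that degrades proteins tagged with ubiquitin. Its core is a stack of rings. The outer alpha rings control entry, and the inner beta rings hold the catalytic subunits Psmb5 (chymotrypsin-like activity), Psmb6 (caspase-like) and Psmb7 (trypsin-like). The cap sits on the core. Its base carries the ATPases of the Psmc family, which unfold substrates and open the gate, and its lid carries Psmd14, the enzyme that removes the ubiquitin chain. Cells with too little proteasome activity are known to raise subunit genes together through the transcription factor Nfe2l1, and oxidative stress is known to act on some of them through Nfe2l2.

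Some arrays went against their labels or stood apart. Log2 changes after H2O2 in p53-/- MEFs, taken by label, ran opposite to those of WT MEFs, with r = -0.83 across 17097 genes, against 0.64 for p66-/- MEFs; genes are not independent replicates. The stress gene Atf3 read 5.62 to 5.99 in untreated and 8.30 to 9.13 in H2O2-treated WT arrays, but 8.54 to 9.39 in the p53-/- arrays labelled untreated and 5.57 to 6.30 in those labelled H2O2. The p53-/- results are therefore written by label and again with both labels exchanged. The lys control, an added bacterial transcript, read 6.66 ± 0.26 (SD, n = 12) on arrays of replicates 1 and 2, 4.55 ± 0.48 (n = 12) on those of replicates 3 and 4, and 5.55 ± 0.13 (n = 4) on the Doxo arrays, so Doxo and its own set of arrays cannot be told apart. The p53 target Cdkn1a averaged 10.49 in untreated WT and 7.65 and 6.64 in p53-/- arrays labelled untreated and H2O2. Shc1 read 7.74 to 7.91 in untreated WT and 8.17 to 8.58 in untreated p66-/- arrays, a difference that did not pass the test. Because Shc1 has products other than p66, this reading does not show whether p66 was lost. All 10 fibroblast markers on the list were measured (mean log2 intensities 5.10 to 12.95), and 4 endothelial markers lay at 3.09 to 3.64. Markers of other cell types reached above the lowest fibroblast marker. Their highest means were 8.94 for skeletal muscle, 6.45 for epithelial, 6.33 for blood and macrophage, 5.57 for neural and 5.55 for erythroid markers. Of 29 markers of fibroblasts and other cell types, 0 passed after H2O2 in any genotype, 4 rose and 2 fell after Doxo in WT and 4 rose and 4 fell in p66-/- MEFs, and their part in the results was not tested. In bulk RNA, fewer cells of a type and less RNA per cell cannot be told apart.

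Doxo split the proteasome genes into those that rose and those that fell. In WT MEFs 14 of 34 rose and 7 fell, where 27.0% of all genes rose and 16.1% fell. In p66-/- MEFs 16 rose and 8 fell, against 32.6% and 16.5% of all genes. The beta ring of the core rose almost whole. The cap was mixed, with lid subunits among the genes that fell furthest. All 14 genes that rose and all 7 that fell in WT MEFs did so in p66-/- MEFs too, which is 14 of the 16 that rose and 7 of the 8 that fell there. The share of all genes called in both genotypes was not counted, so this overlap cannot be read as particular to the proteasome. The 2 genotypes had their own untreated arrays but their Doxo arrays belonged to one set. The median change of all genes was 0.19 in WT and 0.21 in p66-/- MEFs, and the core medians were 0.38 and 0.44 and the cap medians 0.29 and 0.31. Among the 1710 genes with the highest mean intensities, which include 29 of the 34 members, 21.8% rose and 31.5% fell in WT MEFs and 27.5% and 32.4% in p66-/- MEFs.

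In the beta ring, 6 of 7 genes rose in each genotype, with ring medians of 0.51 in WT and 0.60 in p66-/- MEFs. Psmb5, the chymotrypsin-like subunit that proteasome inhibitors mainly target, read 10.57, 10.41, 10.54 and 10.57 in untreated WT MEFs and 10.93 and 11.14 after Doxo. It read 10.27, 10.35, 10.64 and 10.63 in untreated p66-/- MEFs and 11.10 and 11.06 after Doxo. In both genotypes the Doxo arrays lay above every untreated array. The change was 0.51 ± 0.14 (adjusted p = 0.00943) in WT and 0.60 ± 0.14 (adjusted p = 0.00234) in p66-/- MEFs.

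Psmb6, the caspase-like subunit, had the largest rise among the beta genes that passed the test. Its values were 10.76, 10.79, 10.96 and 10.94 in untreated WT MEFs and 11.50 and 11.69 after Doxo, and 10.57, 10.53, 11.07 and 11.06 in untreated p66-/- MEFs and 11.66 and 11.54 after Doxo. The groups did not overlap, and the untreated p66-/- arrays of replicates 3 and 4 lay about midway to the Doxo arrays. The change was 0.74 ± 0.17 (adjusted p = 0.0027) in WT and 0.80 ± 0.17 (adjusted p = 0.0012) in p66-/- MEFs, or 1.74-fold in the latter.

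Psmb7, the trypsin-like subunit, had a larger difference that did not pass the test. It read 8.14, 7.90, 9.09 and 8.89 in untreated WT MEFs and 9.43 and 9.50 after Doxo, and 7.93, 7.72, 9.07 and 8.77 in untreated p66-/- MEFs and 9.12 and 9.55 after Doxo. The Doxo arrays lay above every untreated array of their genotype, but the untreated arrays themselves fell into a low pair (replicates 1 and 2) and a high pair (replicates 3 and 4). The difference was 0.96 ± 0.40 in both genotypes (adjusted p = 0.0623 in WT and 0.0557 in p66-/- MEFs). Against replicates 1 and 2 alone Psmb7 rose, by 1.44 in WT (adjusted p = 7.84e-05) and 1.51 in p66-/- MEFs (adjusted p = 4.23e-05), and against replicates 3 and 4 alone the differences were 0.48 and 0.41 and did not pass (adjusted p = 0.0672 and 0.115).

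The other beta genes make the ring without being proteases. Psmb3 rose by 0.64 ± 0.17 (adjusted p = 0.00645) in WT and 0.66 ± 0.17 (adjusted p = 0.00419) in p66-/- MEFs, its highest untreated arrays reading 11.17 and 11.25 and its lowest Doxo arrays 11.63 and 11.60. Psmb1, Psmb2 and Psmb4 rose by 0.36 to 0.45 in WT and by 0.31 to 0.55 in p66-/- MEFs. For Psmb2 the highest untreated WT array read 10.59 and the Doxo arrays 10.93 and 10.82.

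**Figure D1:**
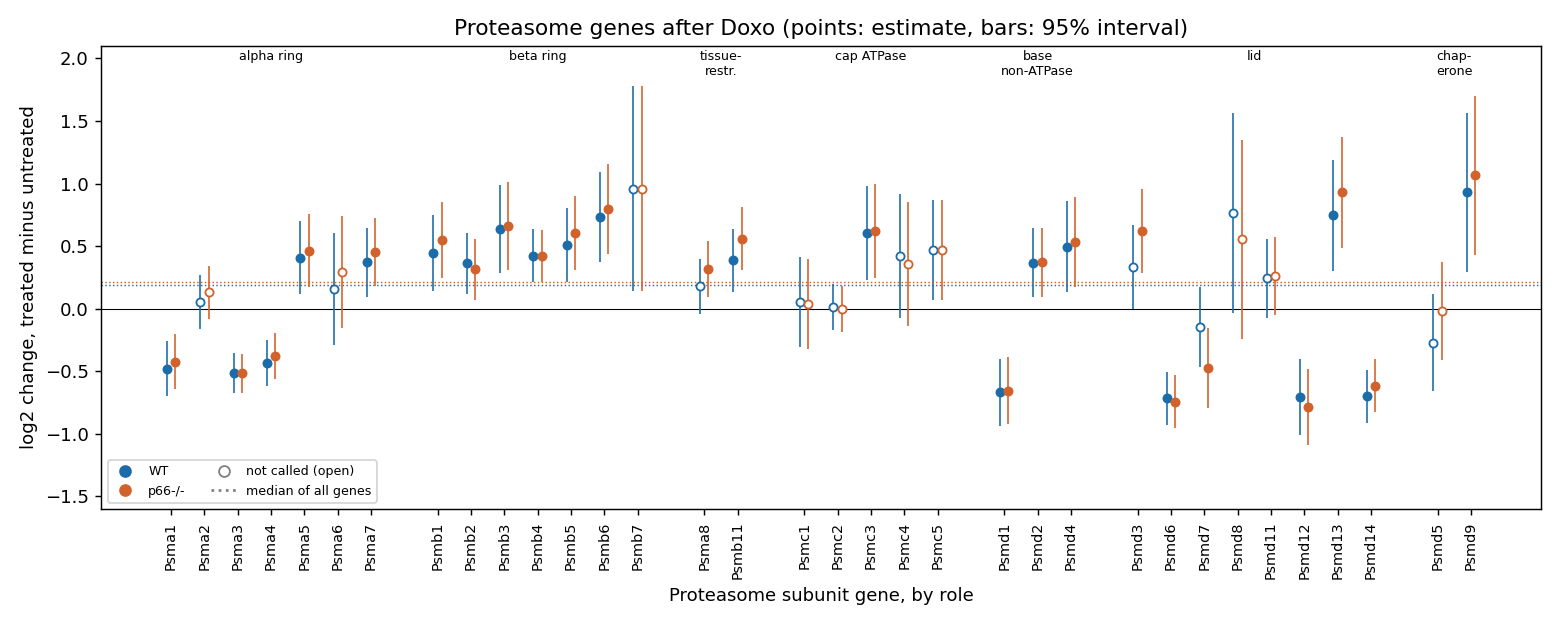
Log2 change after Doxo of each of the 34 genes, grouped by role, in WT and in p66-/- MEFs (2 Doxo against 4 untreated arrays each); points are changes, bars 95% intervals, filled points passed the test and the dotted line is the median change of all genes. The beta ring lies above 0 in both genotypes, and Psmd1, Psmd6, Psmd12 and Psmd14 lie lowest, at -0.61 to -0.78.

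The alpha ring did not move one way. Psma5 and Psma7 rose (0.41 and 0.37 in WT, 0.46 and 0.45 in p66-/- MEFs), Psma1, Psma3 and Psma4 fell, and Psma2 and Psma6 did not pass the test in either genotype (0.05 and 0.16 in WT, 0.13 and 0.29 in p66-/- MEFs). Psma3, an alpha subunit and the member with the smallest spread within groups, read 11.56, 11.47, 11.50 and 11.55 in untreated WT MEFs and 11.13 and 10.88 after Doxo. The p66-/- arrays read 11.53, 11.50, 11.47 and 11.53 untreated and 11.06 and 10.92 after Doxo. Every Doxo array lay below every untreated array by more than the whole untreated range. Psma3 fell by 0.51 ± 0.08 (adjusted p = 3.56e-05) in WT and by 0.52 ± 0.08 (adjusted p = 2.69e-05) in p66-/- MEFs. Psma1 fell by 0.48 and 0.42 and Psma4 by 0.43 and 0.38 in the same order, although 2 further Psma1 probe sets did not pass in WT MEFs (-0.64 and -0.41, adjusted p = 0.157 and 0.0777).

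Psma8, which replaces Psma7 in the testis, and Psmb11, the beta subunit of thymic cortical epithelium, had the lowest intensities of the 34. Psmb11 read 3.06 to 3.17 in untreated WT MEFs and 3.68 and 3.31 after Doxo, and Psma8 read 3.06 to 3.12 and then 3.43 and 3.11. Psmb11 rose in both genotypes (0.39 and 0.56) and Psma8 in p66-/- MEFs (0.32, from arrays of 3.06 and 3.60). Among the 1710 genes with the lowest mean intensities, 16.3% rose after Doxo in WT MEFs and 20.8% in p66-/- MEFs, and 0.292% fell in each.

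In the base of the cap, 1 of 5 ATPases rose. Psmc3 read 10.32, 10.34, 10.52 and 10.58 in untreated WT MEFs and 11.03 and 11.07 after Doxo, and 10.18, 10.00, 10.59 and 10.56 in untreated p66-/- MEFs and 10.91 and 11.01 after Doxo. No untreated array reached the Doxo arrays. Psmc3 rose by 0.61 ± 0.18 (adjusted p = 0.0135) in WT and by 0.62 ± 0.18 (adjusted p = 0.00951) in p66-/- MEFs. Psmc1, Psmc2, Psmc4 and Psmc5 did not pass, with changes from 0.01 to 0.47 in WT and from 0.00 to 0.47 in p66-/- MEFs, and Psmc5 was nearest to passing (adjusted p = 0.0608 and 0.0541).

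The non-ATPase subunits of the base moved apart. Psmd1 and Psmd2 are the large scaffold proteins on which substrates and shuttle factors dock, and Psmd4 is a ubiquitin receptor. Psmd1 read 10.39, 10.38, 10.29 and 10.27 in untreated WT MEFs and 9.86 and 9.47 after Doxo, and 10.55, 10.31, 10.20 and 10.25 in untreated p66-/- MEFs and 9.75 and 9.60 after Doxo. All 4 Doxo arrays lay below all 8 untreated arrays. Psmd1 fell by 0.67 ± 0.13 (adjusted p = 0.000504) in WT and by 0.65 ± 0.13 (adjusted p = 0.000511) in p66-/- MEFs. Its partner Psmd2 rose by 0.37 in each genotype, and Psmd4 rose by 0.50 in WT and 0.53 in p66-/- MEFs.

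The lid held the largest falls. Psmd6, a structural lid subunit, read 10.82, 10.92, 10.85 and 10.87 in untreated WT MEFs and 10.36 and 9.94 after Doxo, and 10.89, 10.75, 10.82 and 10.82 in untreated p66-/- MEFs and 10.08 and 10.07 after Doxo. Every Doxo array was below every untreated array, though the WT Doxo arrays differed from each other by more than the untreated ones did. Psmd6 fell by 0.72 ± 0.10 (adjusted p = 2.17e-05) in WT and by 0.74 ± 0.10 (adjusted p = 1.15e-05) in p66-/- MEFs. A second Psmd6 probe set gave -0.48 and -0.58 and did not pass (adjusted p = 0.350 and 0.239).

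Psmd12, another structural subunit of the lid, read 10.18, 9.89, 10.11 and 10.11 in untreated WT MEFs and 9.50 and 9.25 after Doxo, and 10.16, 9.87, 10.02 and 9.92 in untreated p66-/- MEFs and 9.03 and 9.39 after Doxo. Psmd14, the deubiquitinase, read 11.07, 11.00, 11.08 and 11.11 in untreated WT MEFs and 10.47 and 10.26 after Doxo, and 11.22, 11.02, 11.01 and 11.02 in untreated p66-/- MEFs and 10.47 and 10.44 after Doxo. Neither gene's Doxo arrays overlapped its untreated arrays in either genotype. Psmd12 fell by 0.70 ± 0.15 (adjusted p = 0.000985) in WT and by 0.78 ± 0.15 (adjusted p = 0.000308) in p66-/- MEFs, and Psmd14 by 0.70 ± 0.10 (adjusted p = 2.54e-05) and 0.61 ± 0.10 (adjusted p = 8.9e-05).

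Psmd13, a lid subunit too, went the other way from Psmd6, Psmd12 and Psmd14. It read 9.41, 9.22, 9.30 and 9.38 in untreated WT MEFs and 10.03 and 10.12 after Doxo, and 8.95, 8.87, 9.33 and 9.32 in untreated p66-/- MEFs and 9.95 and 10.14 after Doxo. The Doxo arrays stood clear above the untreated arrays in both genotypes. Psmd13 rose by 0.75 ± 0.21 (adjusted p = 0.0102) in WT and by 0.93 ± 0.21 (adjusted p = 0.00178) in p66-/- MEFs. In p66-/- MEFs Psmd3 rose too (0.62) and Psmd7, the partner of Psmd14, fell (-0.47), whereas in WT MEFs these read 0.33 and -0.15 and did not pass. Other probe sets of Psmd7 with lower intensities gave differences of the opposite sign, 0.49 and 0.18 in WT and 0.46 and 0.47 in p66-/- MEFs. Psmd8 and Psmd11 did not pass in either genotype, and for Psmd8 the difference was 0.77 in WT with a 95% interval from -0.03 to 1.56.

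Psmd9, a chaperone that helps to assemble the base and leaves before the cap is complete, had the largest rise that passed the test. Its values were 7.99, 7.75, 8.34 and 8.43 in untreated WT MEFs and 9.0 and 9.12 after Doxo, and 7.80, 7.50, 8.55 and 8.35 in untreated p66-/- MEFs and 9.10 and 9.13 after Doxo. The Doxo arrays were the highest, and the untreated arrays again split by replicates 1 and 2 against 3 and 4. Psmd9 rose by 0.93 ± 0.31 (1.91-fold, adjusted p = 0.0229) in WT and by 1.07 ± 0.31 (2.09-fold, adjusted p = 0.00909) in p66-/- MEFs. Another Psmd9 probe set of low intensity gave -0.17 and -0.31, neither of which passed. Psmd5, the other assembly chaperone, gave -0.27 and -0.02 and did not pass.

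**Figure D2:**
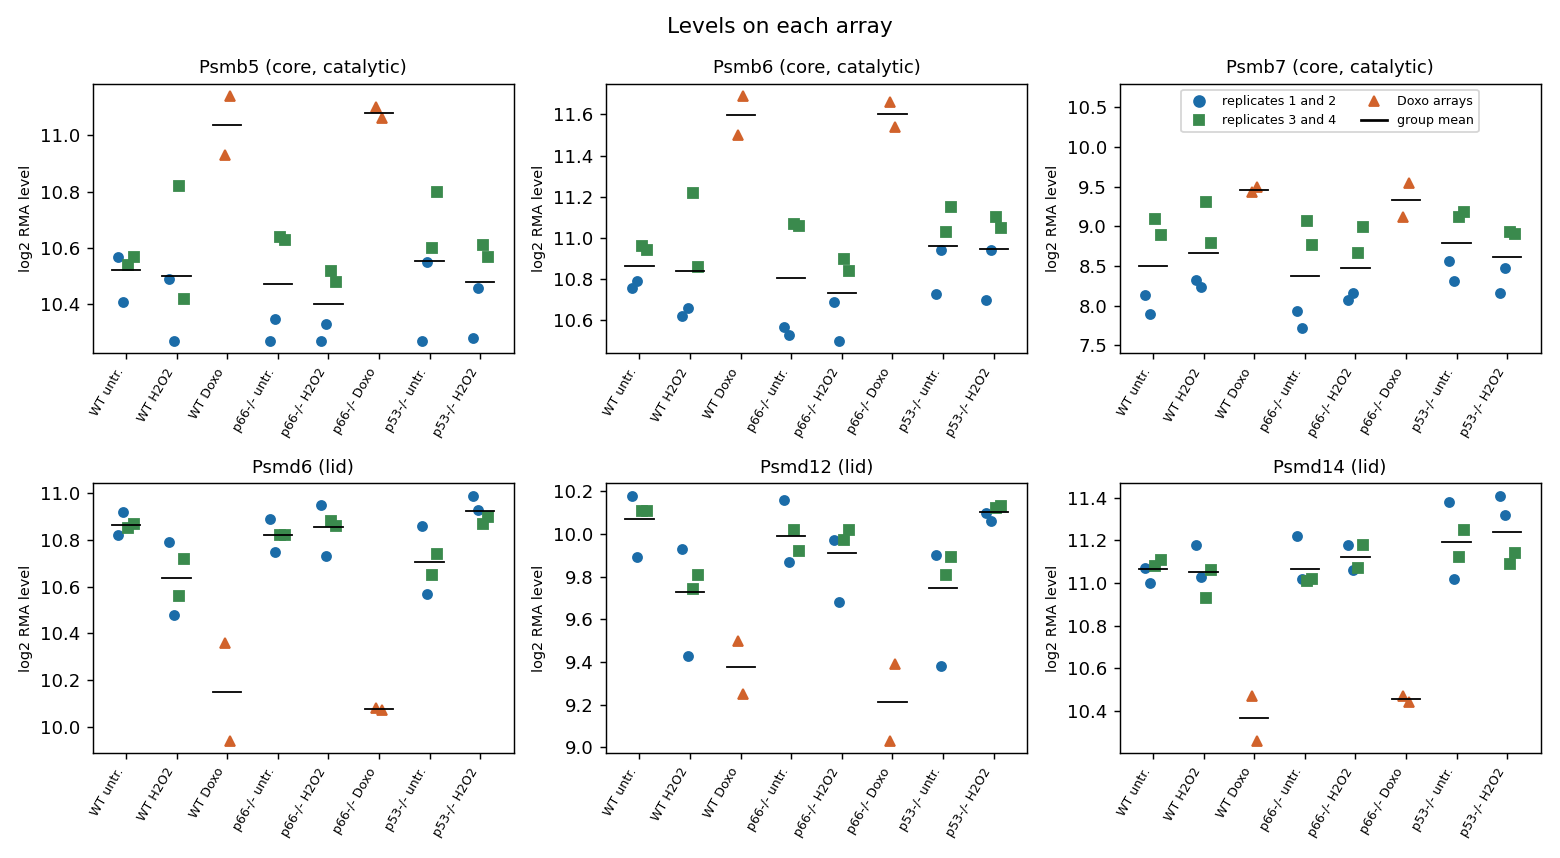
Log2 intensity on every array for the catalytic subunits Psmb5, Psmb6 and Psmb7 and the lid subunits Psmd6, Psmd12 and Psmd14 in the 8 groups; circles are replicates 1 and 2, squares replicates 3 and 4, triangles Doxo arrays, and lines group means. Doxo arrays lie above the untreated arrays of their genotype for Psmb5, Psmb6 and Psmb7 and below them for Psmd6, Psmd12 and Psmd14, and untreated circles lie below untreated squares for Psmb7.

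Promoter letters are shown for 4 members because they are the ones whose 250 bases before the start site hold TGACNNNGC, the core of the antioxidant response element that Nfe2l1 and Nfe2l2 are known to bind. Windows came from RefSeq on GRCm38.p6, where 27 of the 34 members had one. Capitals mark the motif, read on both strands.
Psmb5, chr14:54617996-54618245, minus strand: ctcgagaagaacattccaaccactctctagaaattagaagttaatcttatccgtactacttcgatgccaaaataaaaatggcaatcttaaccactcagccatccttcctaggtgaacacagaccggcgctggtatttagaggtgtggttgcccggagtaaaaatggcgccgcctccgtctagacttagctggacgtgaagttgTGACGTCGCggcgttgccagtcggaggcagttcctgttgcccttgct
Psmb6, chr11:70525107-70525356, plus strand: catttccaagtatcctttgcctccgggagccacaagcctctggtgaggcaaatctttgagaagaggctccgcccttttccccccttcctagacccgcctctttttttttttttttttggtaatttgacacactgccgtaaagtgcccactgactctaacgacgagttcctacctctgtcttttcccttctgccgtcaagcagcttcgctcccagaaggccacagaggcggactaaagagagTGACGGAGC
Psmd9, chr5:123227940-123228189, plus strand: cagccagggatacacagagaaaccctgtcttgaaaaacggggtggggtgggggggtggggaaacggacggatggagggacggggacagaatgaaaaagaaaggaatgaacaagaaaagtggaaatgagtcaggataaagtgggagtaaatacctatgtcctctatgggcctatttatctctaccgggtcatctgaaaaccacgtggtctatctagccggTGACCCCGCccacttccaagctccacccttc
Psmd12, chr11:107479278-107479527, plus strand, motif on the reverse strand: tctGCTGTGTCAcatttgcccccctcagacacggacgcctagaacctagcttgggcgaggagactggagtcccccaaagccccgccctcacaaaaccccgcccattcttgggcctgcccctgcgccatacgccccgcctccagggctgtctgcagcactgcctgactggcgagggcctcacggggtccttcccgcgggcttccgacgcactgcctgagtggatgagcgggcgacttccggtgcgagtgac

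The motif was in 4 of 27 members, or 14.8%, and in 10.2% of all 32851 windows. In Psmb5, Psmb6 and Psmd9, which rose after Doxo, it began at positions -47, -9 and -31 counted from the start site, and in Psmd12, which fell, at -247. Of the members with a window, 3 of 11 that rose in both genotypes and 1 of 7 that fell held it. The CCAAT box was in 11 of 27 members (40.7%) and in 33.8% of all windows, among them 4 of the 11 and 3 of the 7. These are matches of letters and not binding sites.

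The genes that rose were often those that already differed between the untreated sets of arrays. Over the H2O2 and untreated arrays, 22 of the 34 members were higher in replicates 3 and 4 than in replicates 1 and 2 and 1, Psmd1, was lower, against 30.7% and 14.1% of all genes. The difference was 0.81 for Psmb7, 0.61 for Psmd8 and Psmd9, 0.46 for Psmc4 and 0.43 for Psma6. Of the 14 genes that rose after Doxo in WT MEFs, 13 were also higher in replicates 3 and 4, and so were 13 of the 16 in p66-/- MEFs; of the genes that fell, 1 was in each genotype. How many of all the genes called after Doxo were also higher in replicates 3 and 4 was not counted. The part of the array set in the Doxo result was not tested.

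The Doxo changes were also read against each set alone. Against replicates 1 and 2, 17 members rose and 6 fell in WT MEFs (27.1% and 15.7% of all genes), and against replicates 3 and 4, 13 rose and 7 fell (25.6% and 18.9%). In p66-/- MEFs the counts were 19 and 6 (38.0% and 17.0%) and 12 and 8 (22.0% and 18.0%). Of the 14 WT rises, 13 passed against either set alone, the exception being Psmb11, and of the 7 falls 6 did, the exception being Psma4. In p66-/- MEFs 12 of 16 rises (not Psma5, Psma8, Psmb2 and Psmd2) and 6 of 8 falls (not Psma1 and Psmd7) passed against either set alone. The share of all called genes that passed against either set was not counted, so these counts have no baseline. Psmd6 gave -0.72 against replicates 1 and 2 and -0.71 against replicates 3 and 4 and Psmd14 gave -0.67 and -0.73, nearly the same against either. The rise of Psmd9 was 1.19 against the former and 0.68 against the latter.

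**Figure D3:**
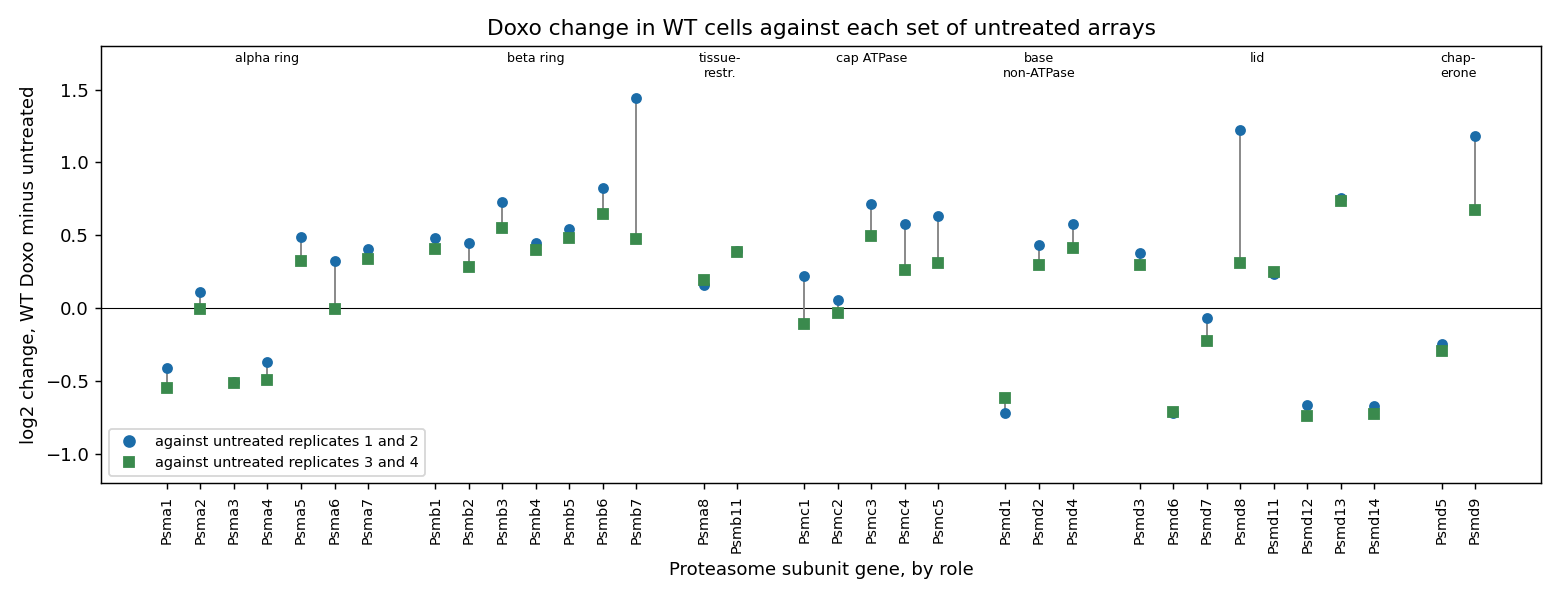
Log2 change after Doxo in WT MEFs for each of the 34 genes, by role along the x axis, against untreated replicates 1 and 2 (circles) and against untreated replicates 3 and 4 (squares), joined by a line. The points of Psmd6 and of Psmd14 nearly coincide, whereas Psmb7 moves from 1.44 to 0.48.

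Only 2 arrays stood for each Doxo group, and the counts of rises rested on both. Without WT Doxo replicate 1, 5 members rose and 7 fell (18.0% and 13.9% of all genes), without WT Doxo replicate 2, 2 rose and 6 fell (10.0% and 10.2%), and without p66-/- Doxo replicate 2, 7 rose and 8 fell (17.8% and 12.4%), the lone array being assumed to vary like the other groups. Single genes were followed only for the catalytic subunits, the largest called changes and calls against their role's majority. Among these, Psmb3, Psmb5, Psmb6, Psmc3, Psmd9, Psmd13 and Psma4 no longer passed without WT Doxo replicate 2. Their changes were then 0.57, 0.40, 0.64, 0.59, 0.87, 0.70 and -0.26 in that order. Psmc3 and Psmd9 did not pass without WT Doxo replicate 1 either (0.62 and 0.99). The counts above show that other rises were lost as well. Psmd9 was also lost without WT untreated replicate 2 (adjusted p = 0.0615), and in p66-/- MEFs without Doxo replicate 1 or 2 (0.0516 and 0.0646). Without p66-/- Doxo replicate 2, Psmb3 and Psmc3 did not pass (adjusted p = 0.0502 and 0.0827). Psma3, Psmd1, Psmd6, Psmd12 and Psmd14 passed in each genotype whichever array was left out. Centring each array on the median of all genes gave 18 rises and 7 falls in WT (41.3% and 15.1% of all genes) and 18 and 8 in p66-/- MEFs (44.9% and 15.6%). At the study's threshold, an unadjusted p under 0.05 and 1.5-fold, 6 rose and 4 fell in WT (14.6% and 15.5% of all genes) and 8 rose and 4 fell in p66-/- MEFs (16.9% and 15.7%).

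Whether the Doxo response differed between p66-/- and WT MEFs was tested gene by gene. None of the 34 passed in limma, nor did any of the 17097 genes (0%), and at an unadjusted p under 0.05 there were 0 members and 342 genes. The members with the lowest p were Psmd7, whose response was lower in p66-/- MEFs by 0.33 (95% interval -0.78 to 0.12), Psmd3, higher by 0.29 (-0.18 to 0.76), and Psmb11, higher by 0.17. Over all members the intervals reached from -1.34 to 1.16, widest for the genes that varied most between arrays.

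Core and cap were also set against each other on each array, as the mean of 14 core genes minus the mean of 16 cap genes. Psma8, Psmb11, Psmd5 and Psmd9 were left out. The quantity compares probe intensities and only its differences between arrays can be read. It was 0.470 ± 0.016 (SD, n = 4) in untreated WT MEFs, 0.572 ± 0.070 (n = 4) after H2O2 and 0.600 and 0.663 on the 2 Doxo arrays. The WT arrays after H2O2 (0.495 to 0.660) all lay above the untreated ones (0.446 to 0.481), as did the Doxo arrays.

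In p66-/- MEFs the same quantity was 0.458 ± 0.114 (SD, n = 4) untreated, 0.499 ± 0.089 (n = 4) after H2O2 and 0.733 and 0.615 after Doxo. Untreated arrays (0.292 to 0.552) and H2O2 arrays (0.395 to 0.611) overlapped, and both Doxo arrays lay above them. In p53-/- MEFs it was 0.512 ± 0.075 (n = 4) by the untreated label and 0.450 ± 0.079 (n = 4) by the H2O2 label. The ranges overlapped, but with arrays paired by replicate number the one labelled H2O2 was lower in 4 of 4 pairs, by 0.039 to 0.075, which with labels exchanged is higher in 4 of 4. Paired the same way, the H2O2 array was higher in 4 of 4 pairs of WT MEFs, by 0.049 to 0.183, and in 2 of 4 pairs of p66-/- MEFs. Arrays of replicates 1 and 2 averaged 0.470, those of replicates 3 and 4 averaged 0.517 and the Doxo arrays 0.653. In WT MEFs the core mean itself went from 10.74 to 11.00 with Doxo and the cap mean from 10.27 to 10.37.

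**Figure D4:**
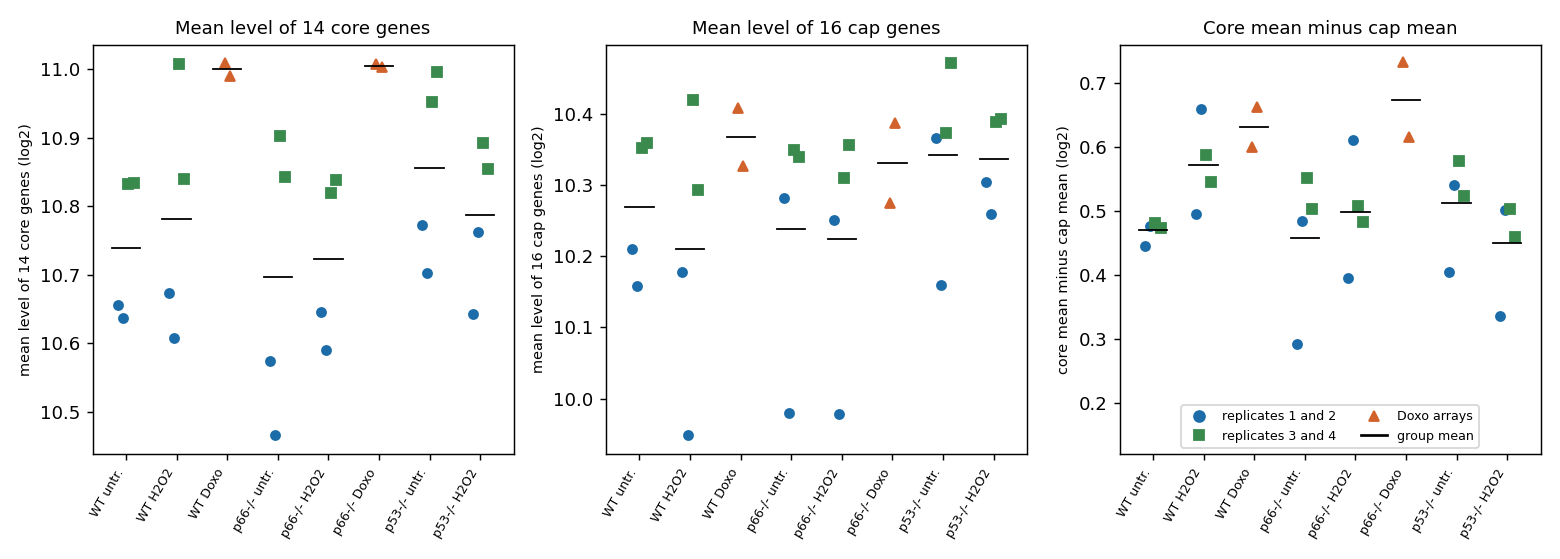
Mean log2 intensity of 14 core genes and of 16 cap genes on every array of the 8 groups, and the difference of the 2 means; points are arrays and lines group means. The difference is tightest in untreated WT MEFs (0.446 to 0.481) and reaches 0.733 on a p66-/- Doxo array.

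After H2O2 no proteasome subunit passed the threshold in any genotype when all arrays were used without a block for replicate number. In WT MEFs 0 of 34 passed in limma, while 2.29% of all genes rose and 2.67% fell, and 4 members had an unadjusted p under 0.05, against 15.5% of all genes. The plain linear model without moderation also called 0. The core median was 0.02 and the cap median -0.02, and the 95% intervals of single members reached from -0.65 to 0.83. The catalytic subunits read, as group means, 10.52 untreated and 10.50 after H2O2 for Psmb5, 10.86 and 10.84 for Psmb6 and 8.50 and 8.66 for Psmb7.

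After H2O2 in WT MEFs 7 of the 8 lid genes lay below 0, with a median of -0.18, where 7594 of 17097 genes lay below 0. Among the 7 were Psmd8 at -0.001 and Psmd14 at -0.018. Low values were not confined to the lid, as the chaperone Psmd5 and the base subunit Psmd4 each gave -0.25. Psmd12 read 9.93, 9.43, 9.74 and 9.81 after H2O2, a difference of -0.35 ± 0.12 (adjusted p = 0.137), and Psmd6 read 10.79, 10.48, 10.56 and 10.72, a difference of -0.23 (adjusted p = 0.172). For Psmd6 all H2O2 arrays lay below the untreated arrays given above, and for Psmd12 they did not. With the replicate number as a block, since numbers paired these samples, Psmd12 and Psmd6 fell (adjusted p = 0.00525 and 0.0289) and no other member passed, where 4.31% of all genes rose and 5.38% fell. The ATPase Psmc2 read 10.58, 10.63, 10.66 and 10.72 untreated and 10.78, 10.77, 10.87 and 10.82 after H2O2. Its groups did not overlap either, but its difference of 0.16 did not pass (adjusted p = 0.323).

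None of the 34 passed after H2O2 in p66-/- MEFs, where 0.0351% of all genes rose and 0% fell, and 0 members had an unadjusted p under 0.05, against 5.22% of all genes. The core median was 0.03 and the cap median -0.02. The largest difference was that of Psmd9, at -0.14. Psmd6 and Psmd12, the lid genes described above, read 10.95, 10.73, 10.88 and 10.86 and 9.97, 9.68, 9.97 and 10.02 after H2O2. For Psmd6 these lay within or close to the untreated range (10.75 to 10.89). For Psmd12 they lay within the untreated range (9.87 to 10.16) except for replicate 2, which at 9.68 was below every untreated array. The difference of the p66-/- response from the WT response passed in limma for 0 of 34 members and 0% of all genes, with 1 member at an unadjusted p under 0.05, against 3.52% of all genes. It was 0.26 for Psmd6 and for Psmd12 and 0.37 for Psmd5.

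**Figure D5:**
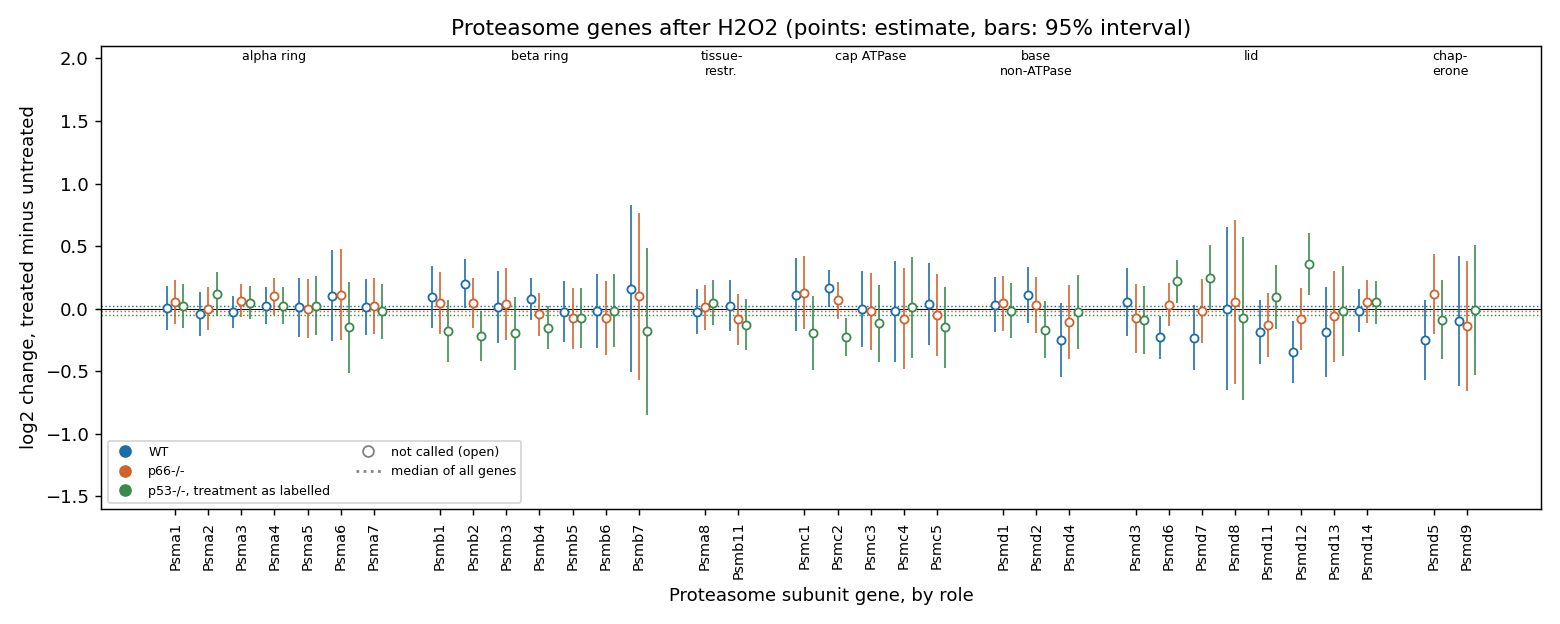
Log2 difference between arrays labelled H2O2 and untreated for each of the 34 genes in WT, p66-/- and p53-/- MEFs (4 against 4 arrays each), by role; bars are 95% intervals, open points did not pass the test and the dotted line is the median of all genes. No point is filled, and Psmd12 lies at -0.35 in WT and at 0.36 in p53-/- MEFs taken by label.

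In p53-/- MEFs 0 of 34 passed by label (2.86% and 3.02% of all genes) and 4 had an unadjusted p under 0.05, against 19.3% of all genes. Psmd12 read 9.90, 9.38, 9.81 and 9.89 in arrays labelled untreated and 10.10, 10.06, 10.12 and 10.13 in those labelled H2O2. Psmd6 read 10.86, 10.57, 10.65 and 10.74 and then 10.99, 10.93, 10.87 and 10.90. The groups did not overlap for either gene, with the arrays labelled H2O2 higher. The differences by label were 0.36 for Psmd12 (adjusted p = 0.0952) and 0.22 for Psmd6, and with labels exchanged -0.36 and -0.22.

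Psmc2 and Psmb2, a beta subunit, ran the other way. Psmc2 read 10.98, 10.78, 10.93 and 11.13 in p53-/- arrays labelled untreated and 10.64, 10.69, 10.83 and 10.77 in those labelled H2O2, and Psmb2 read 10.78, 10.66, 10.89 and 10.99 and then 10.60, 10.59, 10.62 and 10.64. The groups were separate for Psmb2 and overlapped for Psmc2. The differences by label were -0.23 (adjusted p = 0.0803) and -0.22. With the replicate block Psmd12 and Psmd6 rose and Psmc2 and Psmb2 fell by label (adjusted p = 0.00367, 0.0326, 0.0251 and 0.0388), where 5.87% of all genes rose and 6.05% fell, and without p53-/- replicate 2 labelled untreated, 1 member (Psmc2) fell.

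Taken by label, the H2O2 response of p53-/- MEFs differed from that of WT MEFs in 4 of 34 members, where 6.73% of all genes were higher and 6.80% lower. The difference was 0.71 ± 0.17 for Psmd12 (adjusted p = 0.00704) and 0.45 for Psmd6 (adjusted p = 0.0145), and -0.39 for Psmc2 (adjusted p = 0.0137) and -0.42 for Psmb2 (adjusted p = 0.0485). With the p53-/- labels exchanged 0 of 34 passed (0% and 0.0409% of all genes), and the same genes gave -0.01, 0.01, 0.06 and 0.02. With replicates 1 and 2 alone 0 passed (2.54% and 1.68% of all genes). With replicates 3 and 4 alone Psmd6 (0.42, adjusted p = 0.141) and Psmc2 (-0.39, adjusted p = 0.083) did not pass, where 9.39% of all genes were higher and 10.7% lower. A second Psmd6 probe set gave 0.79 by label over all arrays and did not pass (adjusted p = 0.332). The replicate block gave 6 by label, adding Psmd7 (0.48, adjusted p = 0.0294) and Psmc1 (-0.31, adjusted p = 0.0455), where 10.9% of all genes were higher and 11.0% lower. At an unadjusted p under 0.05 and 1.5-fold only Psmd12 passed by label (9.33% and 7.27% of all genes).

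Before treatment, p66-/- and WT MEFs did not differ in any of the 34 genes by the test, nor in any gene of the array (0%), with 0 members at an unadjusted p under 0.05. The members named by lowest p were Psmd5 (-0.27), Psmd13 (-0.21) and Psmb1 (-0.11). Between p53-/- arrays labelled untreated and WT untreated arrays, 1 member, Psmc2, was higher by 0.31 ± 0.07 (adjusted p = 0.0126), where 3.60% of all genes were higher and 2.69% lower. Psmb2 was next at 0.32 (adjusted p = 0.0575), and Psmd12 gave -0.33 (adjusted p = 0.138). Psmc2 did not pass without WT untreated replicate 1 or without p53-/- replicate 4 labelled untreated (adjusted p = 0.0525 and 0.0549). With labels exchanged 0 passed (0.0175% and 0.111%), and the values were 0.08, 0.10 and 0.03. With the replicate block Psmb2, Psmc2 and Psmc5 were higher and Psmd12 lower by label (7.59% and 5.42% of all genes), and at an unadjusted p under 0.05 and 1.5-fold 0 passed (3.26% and 3.45%).

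Genes that work with the proteasome were read from a list of 28 measured genes. After Doxo 6 rose and 6 fell in WT MEFs and 9 rose and 7 fell in p66-/- MEFs, with list medians of 0.09 and 0.08, beside the shares of all genes given above. The activators of the core Psme1 and Psme2 rose (0.93 and 0.78 in WT, 0.96 and 0.73 in p66-/- MEFs), as did Psmf1, which binds the core and can inhibit it (1.07 and 0.94), and the core assembly chaperones Psmg1 and Psmg4 (0.72 and 0.82 in WT, 0.89 and 0.96 in p66-/- MEFs). The deubiquitinases that dock on the cap, Usp14 and Uchl5, fell by 1.23 and 1.21 in WT and by 1.28 and 1.44 in p66-/- MEFs. The shuttle proteins Ubqln1 and Ubqln2 fell by 0.68 and 1.12 in WT MEFs. Ubqln4 went the other way, reading 7.25 to 7.67 untreated and 8.22 and 8.23 after Doxo in WT MEFs. Of the 6 listed genes for shuttling and unfolding, 1 rose and 3 fell in WT and 2 rose and 3 fell in p66-/- MEFs. Ngly1, which processes Nfe2l1, fell by 1.90 in WT MEFs. Nfe2l1 itself gave 0.11 and 0.13 and did not pass. The immunoproteasome subunit Psmb9 rose by 3.06 and 3.22 and Psmb10 by 1.30 and 1.37, and Psmb8 rose in WT MEFs by 1.68.

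After H2O2 in WT MEFs 3 genes of the list rose and 0 fell, where 2.29% of all genes rose and 2.67% fell. They were Zfand2a and Zfand5, which associate with the proteasome in stressed cells (1.12 and 0.79), and Nfe2l2 (0.67, adjusted p = 0.0323). Zfand5 was of low intensity, reading 3.30 to 3.44 untreated and 3.96 to 4.40 after H2O2 in WT MEFs. The p66-/- values of Zfand2a, Zfand5 and Nfe2l2 were 0.39, 0.12 and 0.42 and 0 of 28 passed. In p53-/- MEFs Zfand2a and Zfand5 were lower by label (-0.79 and -0.68), which is a rise with labels exchanged. Psmb9 rose by 1.54 after H2O2 in WT MEFs (adjusted p = 0.00268).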

How the data were processed

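RNA was extracted with Trizol, labelled with biotin by 3′ IVT and hybridised to Affymetrix MOE430PM strips. The authors deposited log2 intensities made by RMA in Partek 6.5. Control probe sets (104 of 45141) were left out. Of the 45037 others, 28898 had a single gene symbol, 551 had several and 15588 had none. A means model of 8 groups was fitted with limma 3.58.1 in R 4.3.3, and p-values were adjusted by Benjamini-Hochberg. The code was tested on simulated data. Percentages of all genes refer to 17097 genes.

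All members were accounted for by role. The catalytic subunits were given with values, and so were, per comparison, the largest called changes, calls against the role's majority, the largest uncalled change, and up to 3 genes of lowest p. Members and lists were chosen with earlier results of these data known. Deviations of untreated and H2O2 samples with the same number were correlated (0.51 to 0.75), but those of Doxo samples were not (-0.08 to 0.05). In p66-/- MEFs, however, H2O2 replicates 3 and 4 matched untreated replicates 4 and 3 best. The replicate block was shared by all 3 genotypes. Alternatives varied the probe set, filter, normalization, moderation, samples, pairing, threshold and p53-/- labels. Centring on the median of all genes and the use of the methods' t-test at the study's threshold were chosen after seeing the data. The authors' own comparisons were not used.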

Additional observations from a re-analysis of the deposited data

Results flagged for a closer look

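Groups of 4 arrays were tested for the members picked by the rule for named genes, the core mean, the cap mean and their difference. In 6 of the 144 groups the highest or lowest array stood apart by Dixon's criterion, where chance marks about 1 in 20 groups. Psma1 read 10.67 in p66-/- H2O2 replicate 2 against 10.89 to 10.91 in the others. The same array was low for Psmd12 (9.68 against 9.97 to 10.02) and Psmd5 (9.05 against 9.40 to 9.45). Psma4 read 10.55 in WT untreated replicate 1 against 10.75 to 10.78, and 10.83 in p66-/- H2O2 replicate 1 against 10.73 to 10.74. Psmd14 read 11.22 in p66-/- untreated replicate 1 against 11.01 to 11.02.

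A difference between genotypes was tested as an interaction in limma. By label, the H2O2 response of p53-/- MEFs exceeded that of WT MEFs by 0.709 for Psmd12 and 0.448 for Psmd6 and fell short of it for Psmc2 (-0.389) and Psmb2 (-0.419). With the p53-/- labels exchanged these were -0.012, 0.011, 0.062 and 0.017, and none passed.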

How the results depend on the processing

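Of 209 recomputed counts of members, 184 stayed on their side or within 1.5 times, and of 134 recomputed medians 130 did. At the study's 1.5-fold threshold 10 members passed after Doxo in WT and 12 in p66-/- MEFs, in limma (30.1% and 32.6% of all genes) and in the methods' t-test (29.6% and 32.1%), and leaving out 1 array gave 8 to 22 and 15 to 26. The replicate block gave 2 after H2O2 in WT MEFs and 4 by label in p53-/- MEFs, where leaving out 1 array gave 0 to 1. For p53-/- against WT untreated the count of 1 became 0 in a fit to the compared groups alone, with labels exchanged, with replicates 1 and 2 only and at 1.5-fold by either test, 2 with the mean of all probe sets or centring, 4 with the replicate block and 0 to 2 without 1 array. For the p53-/- minus WT H2O2 response the count of 4 became 0 with labels exchanged or replicates 1 and 2 only, 1 at 1.5-fold by either test and 3 to 4 without 1 array.

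For p66-/- Doxo the cap median was 0.494 against replicates 1 and 2, 0.073 against replicates 3 and 4 and 0.173 to 0.377 without 1 array, and the core median 0.279 against replicates 3 and 4. The WT H2O2 cap median ran from -0.176 to 0.041 without 1 array.

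Signs turned with labels exchanged for Psmc2 (0.062) and Psmd12 (-0.361, -0.012 and 0.031), with replicates 3 and 4 only for Psmb1 in p66-/- against WT (0.017), and with other probe sets for Psmd7 in p66-/- minus WT Doxo (0.289) and Psmd9 (p66-/- Doxo -0.31, WT Doxo -0.165, p66-/- H2O2 0.067). Without 1 array Psmb11 in p66-/- minus WT Doxo ran from -0.013 to 0.359 and Psmd9 in p66-/- H2O2 from -0.321 to 0.049. The causes were not tested.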
